A study of Mus musculus with 18 samples.

Results

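Regenerating proteins and Paneth cell antimicrobials were followed through 3 organs of septic mice, some of which inhaled hydrogen gas. The set holds 9 genes, Reg3b, Reg3g, Reg3a, Reg1, Defa24, Lyz1, Mmp7, Itln1 and Ang4, chosen by symbol among the 24346 symbols of the expression tables, and all 9 were found. H2 mice were male C57BL/6 animals, 9 weeks old, that underwent cecal ligation and puncture, a surgical sepsis in which gut bacteria leak into the abdomen, and then breathed 7% H2 without a break until tissue was taken 24 h later. Control mice had the same strain, age, surgery and time without the gas. Each organ, intestine, liver and lung, gave n = 3 H2 and n = 3 control libraries, 18 in all. H2 mice shared a cage inside a gas box, so gas and housing cannot be told apart. In each organ the description fields of H2 replicates 2 and 3 name H3 and H4, while their titles and source names say H2, which the grouping follows. Sham-operated mice are not analysed here, so every comparison is within sepsis. The labels do not name the stretch of intestine or state whether a mouse gave more than one library, and p-values measure the spread between these libraries. Levels are in FPKM, the fragments of a gene scaled to its transcript length and to the fragments mapped in the library.

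Paneth cells sit at the base of small intestinal crypts and release granules of antimicrobial proteins into the lumen. Among these are alpha-defensins such as Defa24, lysozyme (Lyz1), the angiogenin ribonuclease Ang4 and the metalloproteinase Mmp7, which cuts the alpha-defensin precursors into active peptides in the mouse. Itln1 is a lectin of the crypt that binds microbial sugars. The Reg3 proteins are secreted C-type lectins. Reg3g and Reg3b are made by enterocytes and Paneth cells, Reg3g kills Gram-positive bacteria and keeps them off the mucosa, and their transcription responds to IL-22 and STAT3. The same family is also known as an acute-phase product of injured pancreas and liver.

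In the intestine, Reg3b and Reg3g held ranks 1 and 2 among all genes in all 6 libraries. The 9 members together made up 25.5, 27.1 and 24.0% of the summed FPKM in the H2 libraries, against 21.1, 25.1 and 23.6% in the control libraries. In the liver and the lung their share was at most 0.153%. The summed FPKM itself was 850609, 1142966 and 750326 in H2 intestine libraries 1, 2 and 3 and 712858 to 739194 in the control ones, so totals also differ. The value that 1 fragment takes implies depths between 8.91 M (H2 intestine 2) and 16.2 M fragments (H2 lung 2).

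Before any comparison, the intestine libraries differed in segment markers. Gata4, a transcription factor of the proximal small intestine, was at 0.181, 11.2 and 11.3 FPKM in H2 intestine 1, 2 and 3, against 0.184, 0.171 and 0.136 FPKM in controls. Gip, the duodenal and jejunal hormone, was at 1.80, 48.4 and 29.8 FPKM in H2 libraries and at 2.66, 4.49 and 10.01 FPKM in control libraries. Both genes were thus highest in H2 libraries 2 and 3, and they had the smallest p in a list of 7 proximal genes. The list summed to 95.6, 302 and 156 FPKM in H2 intestine, against 196, 79.8 and 234 FPKM in controls. That sum did not set those libraries apart, but the number of its genes under 1 FPKM did. It was 2 and 1 in H2 intestine 2 and 3, against 4 in each of the other intestine libraries. Of the list's 4 tested genes 2 were higher in H2 and 2 lower, Cck at a log2 change of -0.15 and Slc40a1 at -0.06. Fabp6, the ileal bile acid carrier, was at 2471, 3060 and 1721 FPKM in H2 libraries, against 1653, 1548 and 1112 FPKM in controls, so ileal expression was present in all 6. Of 8 listed colon markers, Hoxb13, a marker of the distal colon, was at 0 in all 6. By contrast, 5 of the 8 had a mean of at least 1 FPKM, 3 higher and 2 lower in H2. The colon list summed to 1075, 819 and 670 FPKM in H2 libraries, against 703, 598 and 486 FPKM in controls. The part of segment in the results was not tested, and each member's change is given also without H2 intestine 2 and without H2 libraries 2 and 3 together, which leaves 1 H2 library.

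**Figure D1:**
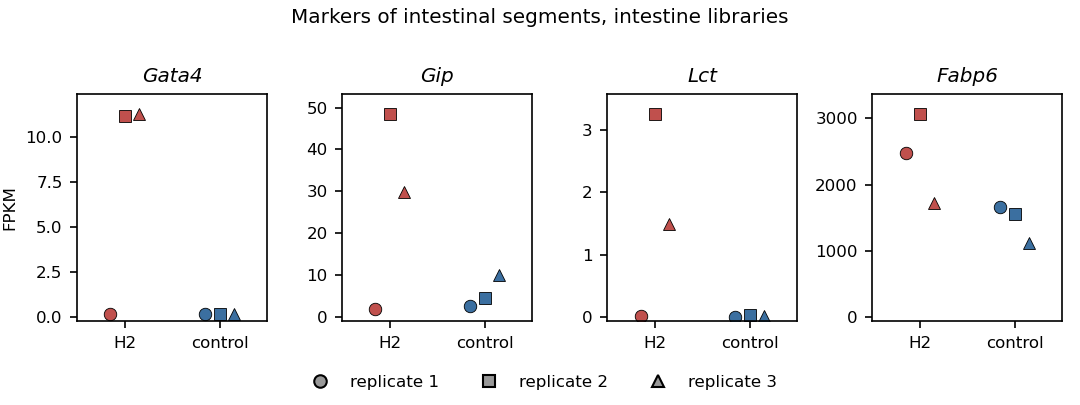
FPKM of 3 proximal markers (Gata4, Gip, Lct) and 1 ileal marker (Fabp6) in the 6 intestine libraries, H2 left and control right, 1 point per library with its own axis per gene. Gata4 was at 11.2 and 11.3 FPKM in H2 libraries 2 and 3 and at most 0.184 FPKM in the other libraries, while Fabp6 was at 1112 FPKM or more in all.

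All 9 members had a higher mean in H2 intestine than in control intestine, with log2 changes of 0.29 to 1.28 and a median of 0.72. Over the 11910 genes tested the median was 0.02, and 52.2% were above 0. None of the 9 was called by limma at an adjusted p under 0.05, where 0.0084% of all genes tested were called. Without adjustment, 4 of 9 (Reg1, Lyz1, Itln1 and Ang4) were under 0.05 and higher, as were 6.51% of all genes. For 6 of 9 members, Reg3b, Reg1, Lyz1, Mmp7, Itln1 and Ang4, every H2 library was above every control library, a pattern that 10.6% of all tested genes showed. Without H2 intestine 2, all 9 were still higher, the same number of 6 did not overlap (12.6% of all genes) and the median change was 0.46. Without H2 libraries 2 and 3 together, all 9 were higher with a median of 0.49, and 8 of 9 were above every control, as were 32.5% of all genes. With libraries scaled to equal summed FPKM, which moved the median of all genes to -0.24, 8 of 9 were higher, Reg3g was at -0.02, and the median of the 9 was 0.41. As shares of summed FPKM, 4 members (Reg1, Mmp7, Itln1 and Ang4) did not overlap, a pattern that 2.64% of all tested genes showed.

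**Figure D2:**
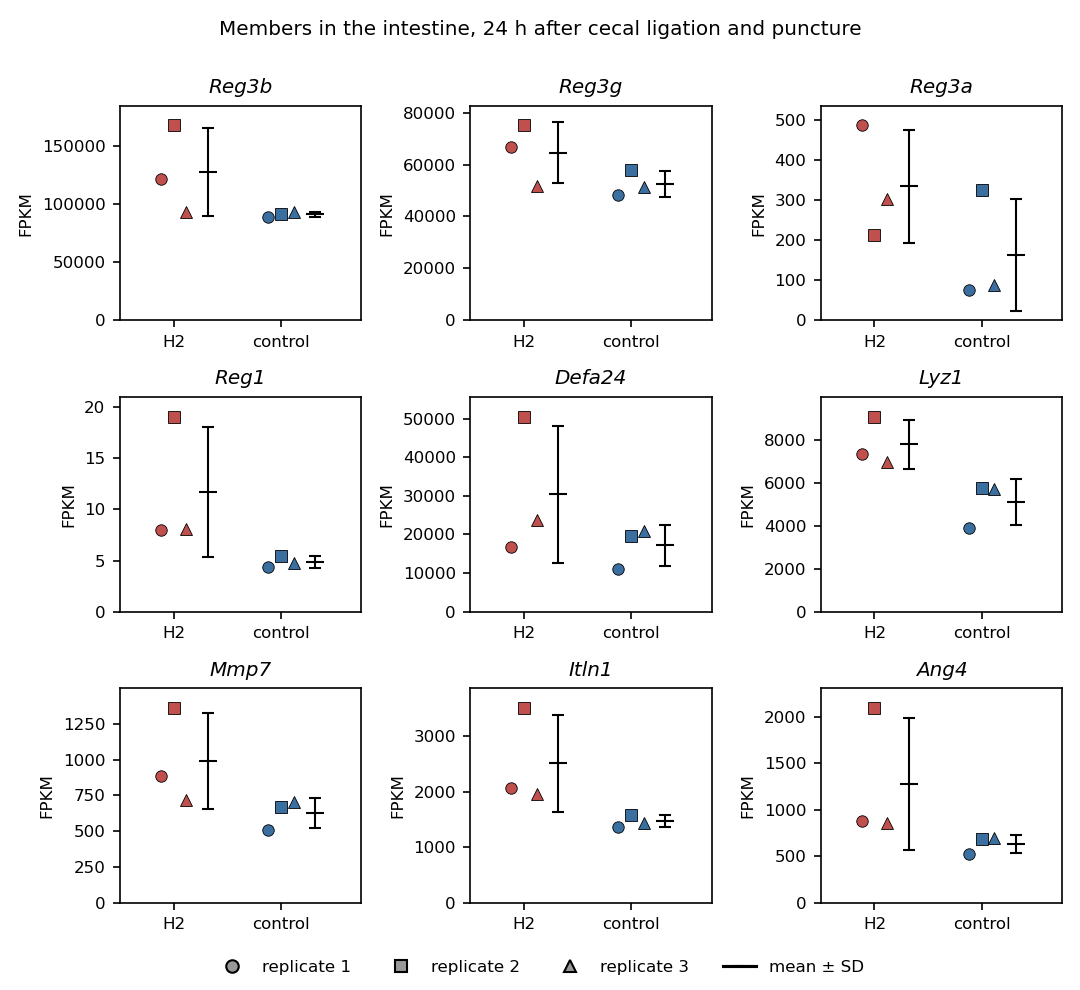
FPKM of the 9 members in the 6 intestine libraries, H2 left and control right, with marker shapes for the replicates and bars for mean ± SD (n = 3). H2 intestine 2 was the highest library for every member except Reg3a, and the groups did not overlap for Reg3b, Reg1, Lyz1, Mmp7, Itln1 and Ang4.

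The 4 Reg members lie in 1 cluster of 6 Reg genes that spans 98.2 kb of chromosome 6 (mm10). Reg3b is at chr6:78370657-78373466 on the plus strand, Reg3a at chr6:78380709-78383827 and Reg1 at chr6:78422711-78428667 on the same strand, and Reg3g at chr6:78466269-78468872 on the minus strand. Their promoters are shown because Reg3b and Reg3g were the most abundant transcripts of the gut while Reg1, in the same cluster, was at a few FPKM. Each is the 250 bases before the start that RefSeq gives (GRCm38.p6, the assembly of mm10), 5' to 3' on the gene's strand, with TTCNNNGAA, the palindrome that STAT proteins are known to bind, and TATAAA near the start in capitals. The windows are chr6:78370635-78370884 for Reg3b, chr6:78468875-78469124 for Reg3g, chr6:78380459-78380708 for Reg3a and chr6:78425733-78425982 for Reg1. The gene spans above are from GENCODE vM21, and its starts can differ from those of RefSeq. The Reg1 window lies inside the span of Reg1, and the Reg3b window overlaps that of Reg3b. Positions and matches therefore hold for the RefSeq start used and not for other starts of a gene.
Reg3b: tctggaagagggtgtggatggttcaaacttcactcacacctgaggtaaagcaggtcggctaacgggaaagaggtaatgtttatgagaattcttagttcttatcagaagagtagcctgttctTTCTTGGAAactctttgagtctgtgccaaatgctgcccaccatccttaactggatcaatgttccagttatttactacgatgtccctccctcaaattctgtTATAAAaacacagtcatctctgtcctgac
Reg3g: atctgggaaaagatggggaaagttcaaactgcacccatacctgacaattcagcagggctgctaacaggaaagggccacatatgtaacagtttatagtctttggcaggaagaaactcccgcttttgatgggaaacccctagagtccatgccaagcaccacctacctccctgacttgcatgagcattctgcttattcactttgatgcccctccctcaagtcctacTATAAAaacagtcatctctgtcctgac
Reg3a: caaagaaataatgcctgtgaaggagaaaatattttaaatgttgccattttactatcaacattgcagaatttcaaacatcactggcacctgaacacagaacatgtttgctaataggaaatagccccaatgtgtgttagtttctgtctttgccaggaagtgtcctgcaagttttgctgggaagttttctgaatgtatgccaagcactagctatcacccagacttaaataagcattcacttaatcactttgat
Reg1: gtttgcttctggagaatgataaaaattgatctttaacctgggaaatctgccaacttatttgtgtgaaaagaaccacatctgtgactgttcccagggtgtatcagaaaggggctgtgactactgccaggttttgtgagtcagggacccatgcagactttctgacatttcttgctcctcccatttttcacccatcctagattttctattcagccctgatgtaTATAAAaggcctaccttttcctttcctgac

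TATAAA began 29 bases before the start in Reg3b, 27 in Reg3g and 30 in Reg1, and these letters were not in the Reg3a window. TTCNNNGAA was found once among these 4, as TTCTTGGAA 129 bases before the start of Reg3b. Over 32817 RefSeq windows of 300 bases (250 before and 50 after the start), 8.29% held TTCNNNGAA, which reads the same on both strands. TATAAA was held by 13.6% on either strand and by 8.32% on the gene's strand, at any position in the window. Of the other members, 8 of 9 in all having a promoter in the table, Ang4 held TTCCCTGAA at 192 bases before its start, and Lyz1, Mmp7 and Itln1 had no TTCNNNGAA. The windows of 300 bases were aligned in pairs, and shares are of the bases aligned without a gap. Reg3g shared 184 of 249 aligned bases (73.9%) with Reg3a and 210 of 294 (71.4%) with Reg3b. More bases were thus identical with Reg3b, though the share was higher with Reg3a. Reg1 shared 60.4 to 65.0% of aligned bases with the 3 Reg3 genes. A match is a description of letters and shows no binding.

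Reg3b had 121596, 167973 and 93683 FPKM in H2 intestine, against 89213, 92036 and 93299 FPKM in control intestine. The lowest H2 library stood just above the highest control library, and the H2 libraries were spread much more widely than the controls. This gave a log2 change of 0.44 ± 0.30 (SE, n = 3 per group, limma adjusted p = 0.529), with a 95% interval of -0.24 to 1.12. It was 0.22 without H2 intestine 2 and 0.41 without H2 libraries 2 and 3. Reg3b alone made up 14.3, 14.7 and 12.5% of the summed FPKM in H2 libraries, against 12.1, 12.9 and 12.6% in controls.

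Reg3g had 66913, 75096 and 51753 FPKM in H2 intestine, against 48142, 58003 and 51385 FPKM in control intestine. H2 library 3 lay inside the control range and the other H2 libraries lay above it. The log2 change was 0.29 ± 0.26 (adjusted p = 0.632, interval -0.32 to 0.89). It was 0.17 without H2 intestine 2, 0.44 without H2 intestine 3 and 0.35 without both. Reg3g was the gene with the smallest change of the 9, and the one whose direction turned under scaling to summed FPKM. The ratio of Reg3b to Reg3g was 1.82, 2.24 and 1.81 in H2 libraries and 1.85, 1.59 and 1.82 in control libraries, so the pair kept a similar proportion in most libraries.

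Reg3a, the least abundant Reg3 member here, had 488, 213 and 304 FPKM in H2 intestine, against 75.0, 326 and 89.0 FPKM in control intestine. Control library 2 lay within the H2 range, while the other controls were far below it. Its log2 change of 1.28 ± 0.56 (adjusted p = 0.408) was the greatest of the 9, and it was 1.94 without control intestine 2, 1.56 without H2 intestine 2 and 1.90 without H2 libraries 2 and 3. Unlike the other members, Reg3a was lowest among H2 libraries in library 2, where it was 0.538 times the mean of the other H2 libraries.

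Reg1, a lectin-fold growth factor best known from pancreas, had 7.97, 19.1 and 8.11 FPKM in H2 intestine, against 4.32, 5.47 and 4.78 FPKM in control intestine. The groups did not overlap, and H2 library 2 stood well above the rest. Reg1 had the smallest p of the 9, with a log2 change of 1.01 ± 0.31 (adjusted p = 0.353), which was 0.63 without H2 intestine 2 and 0.62 without H2 libraries 2 and 3. Pancreatic acinar markers were low: of 18 listed, Prss1, Prss2, Cpa1 and Amy2a5 were at 0 in all 6 intestine libraries, and 3 of 18 had a mean of at least 1 FPKM. Of the remaining family members, Reg4 and Reg3d had log2 changes of 0.31 and -0.13, neither called, and Reg2 was under 1 FPKM in all 6.

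Defa24, an alpha-defensin on chr8:21734494-21735471, had 16776, 50576 and 23766 FPKM in H2 intestine, against 11110, 19561 and 20842 FPKM in control intestine. The groups overlapped, since H2 library 1 was below control libraries 2 and 3. A log2 change of 0.72 ± 0.45 (adjusted p = 0.502) resulted. It was 0.27 without H2 intestine 2, 0.43 without control intestine 1 and 0.02 without H2 libraries 2 and 3.

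Lyz1 (chr10:117287797-117292868), the lysozyme of Paneth granules, had 7339, 9071 and 6938 FPKM in H2 intestine, against 3867, 5741 and 5710 FPKM in control intestine. Every H2 library was above every control library. Its log2 change was 0.62 ± 0.26 (adjusted p = 0.396), with 0.51 without H2 intestine 2 and 0.55 without H2 libraries 2 and 3. The ratio of Defa24 to Lyz1 was 2.29, 5.58 and 3.43 in H2 libraries, against 2.87, 3.41 and 3.65 in control libraries, so the 2 granule products did not keep one proportion.

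Mmp7 (chr9:7692090-7699585), the protease that activates alpha-defensins, had 883, 1363 and 718 FPKM in H2 intestine, against 505, 672 and 704 FPKM in control intestine. The lowest H2 library was only slightly above the highest control. The log2 change was 0.62 ± 0.28 (adjusted p = 0.415), with 0.36 without H2 intestine 2 and 0.51 without H2 libraries 2 and 3.

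Itln1 (chr1:171518122-171535294) had 2057, 3508 and 1961 FPKM in H2 intestine, against 1371, 1580 and 1442 FPKM in control intestine. The groups were clearly apart, with tight controls. On the log2 scale the change was 0.73 ± 0.27 (adjusted p = 0.380), with 0.46 without H2 intestine 2 and 0.49 without H2 libraries 2 and 3. Ang4 (chr14:51763878-51773590) had 881, 2096 and 852 FPKM in H2 intestine, against 521, 682 and 693 FPKM in control intestine. Its groups did not overlap either, but H2 library 2 was more than double the other H2 libraries. For Ang4 the log2 change was 0.89 ± 0.37 (adjusted p = 0.396), with 0.47 without H2 intestine 2 and 0.49 without H2 libraries 2 and 3.

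H2 intestine 2 was above the mean of the other H2 libraries for 8 of 9 members, at up to 2.49 times that mean for Defa24. Over all 9 members, Reg3a included, the median was 1.70 times. Counted library by library, 8 of 9 members in H2 intestine 1, 8 in H2 intestine 2 and 7 in H2 intestine 3 were above all 3 controls, against 32.7, 37.9 and 25.1% of all tested genes. The exceptions were Defa24 in library 1, Reg3a in library 2, and Reg3a and Reg3g in library 3. Transcript length moved with the libraries as well: the median deviation of genes of up to 600 bases was 0.01, 0.26 and -0.03 (log2) in H2 libraries, against -0.17, -0.07 and -0.04 in controls. Defa24, with 419 bases, is in that class. With genes centred within length classes, the change of Defa24 was 0.58 and that of Reg3b 0.33, and all 9 were higher.

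Other Paneth cell genes had mixed values. Of 34 listed, 25 were tested, of which 16 were higher and 9 lower in H2 intestine, none was called, and the median change was 0.33. That median was 0.17 without H2 intestine 2, 0.15 without control intestine 1, 0.50 without control intestine 2 and 0.18 without H2 libraries 2 and 3. Within them, the 10 other alpha-defensin genes tested were all higher, by 0.24 to 1.32 (log2), though 8 of 10 had overlapping groups. Of all tested genes 52.2% were higher, and 10.6% had every H2 library above every control. Alpha-defensin genes share sequence, so fragments may be split between them and the 10 may not be separate observations. Without H2 intestine 2 all 10 were higher with a median of 0.30, against 0.74 with it. Without control intestine 1, 8 of 10 were higher with a median of 0.43, and without H2 libraries 2 and 3, 9 of 10 with a median of 0.16. Scaling to equal summed FPKM left 9 of 10 higher, and quantile normalization 8. The non-defensin genes with the smallest p were Dll4, a Notch ligand of secretory cells, at a log2 change of -0.56, and Clps, a colipase, at 0.76, with an adjusted p of 0.353 for both. Sox9, a transcription factor that Paneth cells need, had overlapping groups, at 4.14, 2.82 and 4.62 FPKM in H2 intestine, against 3.93, 4.73 and 4.09 FPKM in controls. In bulk tissue, more cells of a type and more RNA per cell cannot be told apart.

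Markers of neighbouring cells had values that shifted with single libraries. Of 15 enterocyte genes tested 14 were higher, with a median change of 0.47, and the smallest p belonged to the fatty acid carrier Fabp1 at 1.76 and the apolipoprotein Apoa1 at 1.06. It was 12 of 15 with a median of 0.23 without H2 intestine 2, 10 of 15 with 0.16 without control intestine 2, and 13 of 15 with 0.34 without H2 libraries 2 and 3. Of 10 goblet cell genes 8 were higher, with a median of 0.21, where Tpsg1 at 0.73 and the mucin-folding enzyme Agr2 at 1.05 had the smallest p. That was 5 of 10 with 0.02 without H2 intestine 1, 5 of 10 with 0.13 without control intestine 3, and 10 of 10 with 0.59 without H2 libraries 2 and 3. Without H2 intestine 3 the goblet median was 0.57, and without control intestine 1 it was 0.38. Of 6 general epithelial genes 2 were higher and 4 lower, with a median of -0.09, and all 6 were higher without control intestine 1. None of these was called. Summed over the 10 goblet genes, levels were 13646, 19219 and 8868 FPKM in H2 libraries, against 8606, 8804 and 8884 FPKM in controls. Under scaling to summed FPKM, 10 of 15 enterocyte and 5 of 10 goblet genes were higher. Of 6 smooth muscle genes 5 were lower in H2 intestine, with a median of -0.45 and none called. It was 3 of 6 without H2 intestine 1 (median -0.10), without H2 intestine 2 (-0.07) or without control intestine 2 (0.03), and 6 of 6 without H2 intestine 3 (-1.12) or control intestine 1 (-0.77). Of 8 neutrophil genes 7 were lower, with a median of -0.34 and none called. Without control intestine 1, 2 of the 6 then tested were lower, with a median of 0.29, and without control intestine 2 the median was -0.91. The part of cell composition in the members' values was not tested.

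Other epithelial defence genes did not move one way: 12 of 26 tested were higher and 14 lower, with a median of -0.06 that lay between -0.22 and 0.15 with single libraries left out. Lcn2, the siderophore-binding lipocalin, was at 583, 381 and 550 FPKM in H2 intestine, against 1737, 664 and 1196 FPKM in controls. Its H2 libraries were all below its controls, a pattern that 8.75% of all tested genes showed. The log2 change of -1.16 was not called (limma adjusted p = 0.353). Gsdmc4, a gasdermin, had a change of 1.37, carried mostly by H2 library 2.

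**Figure D3:**
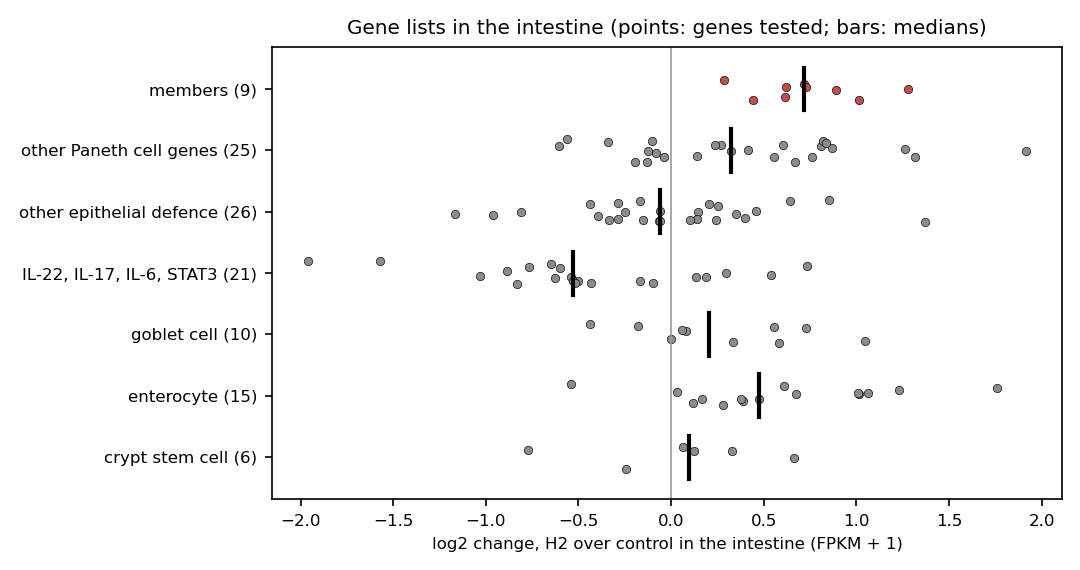
Log2 changes, H2 over control on FPKM + 1, of the genes tested in 7 lists in the intestine, 1 point per gene with the number tested in brackets and a bar at the median. The 9 members lay between 0.29 and 1.28, other Paneth cell genes had a median of 0.33, and the cytokine and STAT3 list had a median of -0.53.

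The list of IL-22, IL-17, IL-6 and STAT3 genes holds inducers of Reg3 expression and also inhibitors such as Socs3. Of its 21 tested genes, 16 were lower and 5 higher in H2 intestine, with a median of -0.53, and none was called. Il6 was at 17.0, 1.74 and 3.03 FPKM in H2 intestine, against 49.96, 1.16 and 46.0 FPKM in controls, so control library 2 was below all H2 libraries. Il22 was at 3.77, 0.232 and 0.586 FPKM in H2 libraries and at 2.28, 3.73 and 4.14 FPKM in controls, with overlap through H2 library 1. Stat3 was at 31.8, 45.4 and 42.8 FPKM in H2 libraries, against 61.7, 51.9 and 56.2 FPKM in controls, with no overlap. Socs3, the feedback inhibitor that STAT3 induces, was at 94.9, 69.8 and 73.8 FPKM against 156, 99.3 and 117 FPKM, also without overlap. Every H2 library was below every control for 8.75% of all tested genes. Log2 changes were -1.57 for Il6, -1.03 for Il22, -0.50 for Stat3 and -0.63 for Socs3. The receptor gene Il22ra1 was at 0.13. The genes with the smallest p in the list were Il6ra at -0.77 and Il1b at -1.96. Without H2 libraries 2 and 3 together, 11 of 21 were lower and the median was -0.09. The part of these genes in the members' values was not tested.

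In the liver the Reg3 genes were expressed at up to 723 FPKM, far under their intestinal levels, and their values ran the other way, lower in H2 mice. Of the 5 members with a mean of at least 1 FPKM, Reg3b, Reg3g, Reg3a, Lyz1 and Mmp7, all 5 had negative log2 changes, where 46.8% of all genes were above 0, and none was called (0.0199% of 10041 genes). The group means of Lyz1 were almost equal, and its direction and that of Mmp7 turned when single libraries were left out.

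Reg3g had 129, 115 and 176 FPKM in H2 liver, against 723, 294 and 520 FPKM in control liver. Every H2 library was below every control, as for 13.1% of all tested genes. The log2 change was -1.79 ± 0.33 (n = 3 per group, limma adjusted p = 0.139), with an interval of -2.58 to -1.01, or 0.289 times the control level. It was called without control liver 2, where the change was -2.15 and adjusted p = 0.00192 but 2834 genes in all were called, and in the fit of all 18 libraries (adjusted p = 0.00459).

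Reg3b had 136, 157 and 233 FPKM in H2 liver, against 473, 458 and 177 FPKM in control liver. Control library 3 lay inside the H2 range. The log2 change was -0.98 ± 0.40 (adjusted p = 0.229). Reg3a had 0.661, 0.136 and 1.30 FPKM in H2 liver, against 3.79, 3.65 and 0.649 FPKM in control liver. Control library 3 was again within the H2 values, and the change was -1.03 ± 0.45 (adjusted p = 0.251). The ratio of Reg3b to Reg3g was 1.05, 1.36 and 1.33 in H2 livers, against 0.654, 1.56 and 0.341 in control livers, a much wider spread among controls than in the gut.

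Mmp7 was at 12.8, 5.86 and 9.59 FPKM in H2 liver, against 20.6, 7.88 and 10.2 FPKM in control liver, with overlap. Lyz1 was at 2.49, 2.17 and 0.767 FPKM, against 2.47, 1.44 and 1.54 FPKM in controls. Reg1 was at 0.124 FPKM in H2 liver 1 and 5.58 FPKM in control liver 1, and at 0 in the other 4 livers. Defa24 and Itln1 likewise had values above 0 only in library 1 of each group, at 0.657 and 0.074 FPKM in H2 liver 1 and 0.746 and 0.080 FPKM in control liver 1. Ang4 was at 0 in all 6 livers.

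Alpha-defensins, products of the gut, had traces in some livers. The 11 alpha-defensin genes with values summed to 2.47 FPKM in control liver 1, which is 0.00386% of their mean in the intestine. At that share Reg3b would stand at 4.23 FPKM and Reg3g at 2.26 FPKM in that library, where 473 and 723 FPKM were measured. In H2 livers 2 and 3 and control liver 2 the defensin sum was 0 while Reg3g stood at 115, 176 and 294 FPKM. Markers of bile duct cells, another liver cell type, had overlapping groups: Krt19 was at 1.84, 0.802 and 1.39 FPKM in H2 livers, against 3.52, 1.31 and 0.627 FPKM in controls. The 6 bile duct markers summed to 43.9 to 65.0 FPKM in H2 livers and 44.8 to 74.8 FPKM in control livers, and 3 of them passed the filter, none called. The part of gut RNA and of bile duct cells in the Reg3 values was not tested.

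The cytokine and STAT3 list had 10 of 15 tested genes lower and 5 higher in H2 liver, with a median of -0.33 and none called. Osmr, the receptor of oncostatin M, was at 4.54, 4.47 and 4.98 FPKM in H2 livers, against 9.09, 7.96 and 9.03 FPKM in control livers, clearly apart at a log2 change of -0.77. The IL-17 receptor gene Il17ra had a change of -0.83. Il6 was at 0.158, 0.097 and 0.205 FPKM in H2 livers, against 6.28, 0.869 and 4.91 FPKM in controls. Library 2 was the lowest control for Il6 and Reg3g, and library 3 for Reg3b and Reg3a. Stat3 was at 43.4, 46.6 and 43.6 FPKM against 76.0, 51.0 and 72.3 FPKM, and Socs3 at 40.5, 52.2 and 47.9 FPKM against 74.6, 53.6 and 72.7 FPKM, control library 2 being lowest in both. The adjusted p of these 5 genes was between 0.126 and 0.189. Il22ra1 was at a change of 0.09, and Il22 was under the filter. The part of these genes in the Reg3 values was not tested.

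**Figure D4:**
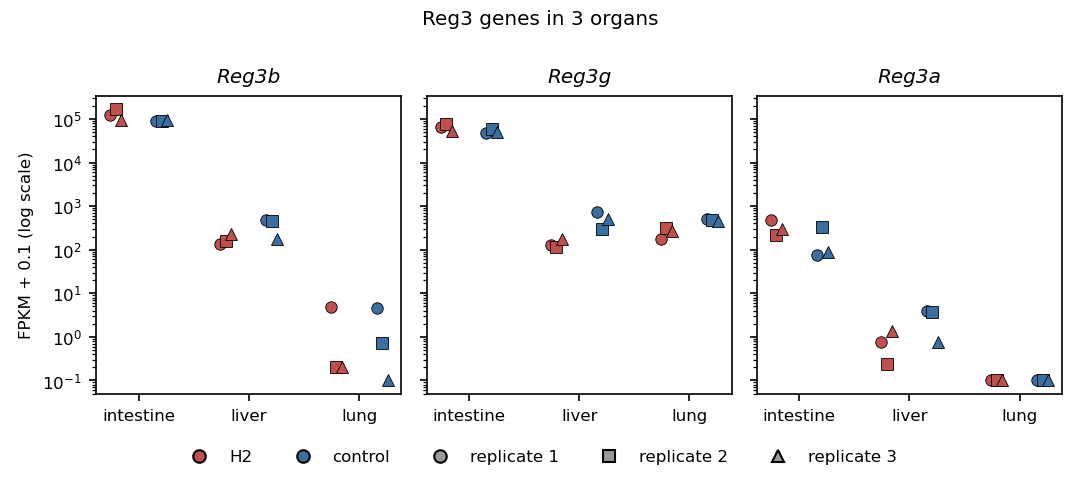
FPKM + 0.1 on a log axis of Reg3b, Reg3g and Reg3a in the intestine, liver and lung, H2 left of control in each organ, 1 point per library. Reg3g stood at 48142 FPKM or more in the intestine, at 115 to 176 FPKM in H2 livers against 294 to 723 FPKM in control livers, and at 175 to 311 FPKM in H2 lungs against 451 to 520 FPKM in control lungs, while Reg3a was at 0 in all lungs.

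In the lung, where Reg3g is made by airway epithelium, Reg3g had 175, 311 and 267 FPKM in H2 mice, against 520, 490 and 451 FPKM in control mice. The groups did not overlap, as for 15.9% of all tested genes in that direction. In the lung the log2 change was -0.99 ± 0.21 (adjusted p = 0.172), and of the 3 members tested in the lung none was called, where 0.00745% of 13424 genes were. It was called without control lung 3 (-1.05, adjusted p = 0.0293), where 3295 genes were called in all. Reg3b did not go with it there: it was at 4.88, 0.101 and 0.106 FPKM in H2 lungs, against 4.59, 0.632 and 0 FPKM in control lungs. The 2 lungs with the most Reg3b, H2 lung 1 and control lung 1, also had the highest summed alpha-defensins, 2.10 and 0.893 FPKM, at which share of the intestine Reg3b would be 3.59 and 1.53 FPKM. Their part in the Reg3b values was not tested.

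Lyz1 was the other member with sizeable lung levels, 810, 771 and 679 FPKM in H2 lungs, against 577, 610 and 829 FPKM in control lungs, with overlap and a change of 0.18 ± 0.16. Its near copy Lyz2, the lysozyme of macrophages, was at 5463, 5686 and 5245 FPKM in H2 lungs and 3738, 3822 and 5923 FPKM in control lungs. The order of the libraries was alike in both genes among controls but not among H2 lungs. Reg3a was at 0 in all 6 lungs, and Reg1, Defa24, Mmp7, Itln1 and Ang4 were under 1 FPKM in each. In the cytokine and STAT3 list 16 of 21 genes were lower in H2 lungs, with a median of -0.28. Socs3 was at 60.9, 60.6 and 52.3 FPKM in H2 lungs, against 301, 281 and 69.4 FPKM in control lungs, and Il6 at 2.68, 2.09 and 1.87 FPKM against 104, 27.6 and 4.48 FPKM. Control lung 3 was nearest to the H2 lungs for both, and it was also the lowest control for Reg3g. The part of the cytokine and STAT3 genes in the Reg3g values was not tested.

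The H2 change of Reg3g differed between intestine and liver. The change in the intestine minus that in the liver was 2.08 ± 0.39 (log2, limma on all 18 libraries, adjusted p = 0.0387, interval 1.25 to 2.91), built from 0.29 in the intestine and -1.79 in the liver. It was 1 of 9 members called, where 0.217% of 13362 genes were called in either direction and 0.0898% in this one. The call was close to its threshold: it was lost in 17 of 28 alternatives, with adjusted p of up to 0.135, while the difference stayed between 1.65 and 2.43. Reg3a had a difference of 2.31 ± 0.69 (adjusted p = 0.143) and Reg3b of 1.42 ± 0.89 (adjusted p = 0.464), both of the same sign. The spread of a gene in this fit is shared by all 18 libraries, lungs included. For Reg3b the SE in the separate fits was 0.30 in the intestine, 0.40 in the liver and 0.85 in the lung. Its SE and p here thus depend also on lung libraries, which are not part of the difference. The difference of Reg3a was called without control intestine 2, at 2.97 with adjusted p = 0.0310. The remaining 6 members had differences of 0.67 to 1.86, none called. Reg1 had the greatest of these, and in the liver it was above 1 FPKM only in control liver 1 (5.58 FPKM). Its difference fell to as little as 0.96 with a single library left out. Defa24, Itln1 and Ang4 were under 1 FPKM in every liver library, so theirs was in substance the intestinal change.

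**Figure D5:**
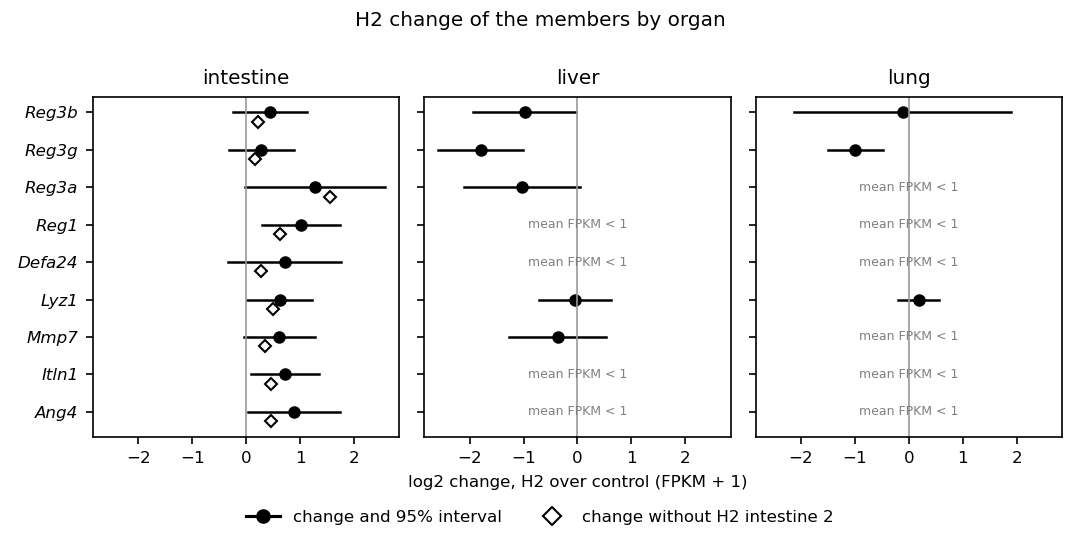
Log2 changes, H2 over control on FPKM + 1, of the members tested in each organ (9 in the intestine, 5 in the liver and 3 in the lung, the rest having a mean under 1 FPKM), with 95% intervals from limma (n = 3 per group) and, in the intestine, open diamonds for the change without H2 intestine 2. Intestinal changes were all above 0 with intervals that reach close to or across 0, and Reg3g lay at -1.79 in the liver and -0.99 in the lung.

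Set in order of mean level in H2 intestine, the members ran Reg3b, Reg3g, Defa24, Lyz1, Itln1, Ang4, Mmp7, Reg3a and Reg1, on a scale that is per length of transcript. The ranges of Itln1 and Ang4 overlapped, as did those of Ang4 and Mmp7, and the others were apart from their neighbours. In control intestine the order was the same, with overlap between Ang4 and Mmp7 alone. Across the 6 groups Reg3g ran from H2 intestine through control intestine, control liver, control lung and H2 lung to H2 liver, with the 2 intestine groups, control liver with control lung, and H2 lung with H2 liver overlapping. Reg3b ran from H2 intestine to control intestine, which did not overlap, then control liver and H2 liver, which did, then the lungs.

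Over the 6 intestine libraries, Reg1 and Itln1 followed each other most closely of the members (Pearson r = 0.998 on log2 FPKM + 1), Reg3b and Reg3g had r = 0.928, and Reg3a had r of 0.266 to 0.652 with the rest. The genes outside the set most like Reg3g were Usp16, Gtf3c6, Fam118b, Uqcc1 and Hltf, with Usp16 at r = 0.996. For Reg1 they were Rab8a, Cox19, Mocos, Papd5 and Ndufa1, and for Itln1 Rab8a, Mocos, Lgals2, Mgst2 and Cox19. For Lyz1 they were Zmat5, Zfp961, H2-T3, Cebpg and Ldb3, and for Defa24 H3f3a, Cetn2, Ube3a, Tmem59 and Yipf4. With 6 libraries that share 2 groups and 1 library far above the rest, between 4.63 and 7.64% of the 7727 genes compared had r above 0.9 with a member, so such likeness is common.

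Several members share sequence with close relatives, so fragments may be split between genes. Over coding bases, Lyz1 and Lyz2 are 95.1% identical, and Ang4 and Ang5 are 88.7% identical. Their longest shared runs are 118 and 79 bases, where runs are in every case counted over whole transcripts. Lyz2 was at 71.7, 86.8 and 93.5 FPKM in H2 intestine, against 21.1, 89.3 and 48.9 FPKM in controls. Defa24 is 82.0 to 98.6% identical to 23 other alpha-defensin sequences of GENCODE vM21, with runs of up to 84 bases, and Defa20 and Defa23 were listed at 0 in all 6 intestine libraries. The level of a single alpha-defensin gene is therefore uncertain. Reg3b and Reg3g are 76.4% identical, and the longest run they share is 35 bases, so they are less open to such splitting.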

How the data were processed

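Poly(A) RNA was sequenced with the TruSeq stranded mRNA kit after miRNeasy Micro extraction, per the labels' protocols. The deposited FPKM values were made by the authors, whose processing notes name Cufflinks 2.2.1, SAMtools 0.1.19, TopHat2 2.0.13 and Bowtie2 2.2.3, and build mm10. Options and annotation are not given in the sources used here. Of 24346 symbols, 4694 were at 0 in all 18 libraries. One file had 1 further value column, equal to control lung 3 (0 values differed), which was not used. FPKM hold no counts, so no counting interval is given.

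Each organ was fitted by itself on log2(FPKM + 1), using limma 3.58.1 (R 4.3.3) with an empirical Bayes trend and two-sided tests, for genes averaging 1 FPKM or more. Benjamini-Hochberg adjustment covered every gene tested, and genes under 0.05 were called. The difference between organs used all 18 libraries, with the spread of a gene shared by all groups. The fits were tested on simulated data. An exact permutation test of 3 against 3 libraries cannot give a p under 0.1, so none was used.

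Groups follow the sample titles. The members and the 19 lists (224 symbols, 221 found) were chosen with earlier results of these data known. Named genes are the 9 members, any called gene of a list or otherwise up to 2 with the smallest p, Il22, Il22ra1, Il6, Stat3 and Socs3, and the 5 genes most correlated with Reg3g, Reg1, Lyz1, Defa24 and Itln1 (mean FPKM of at least 5). Lct, Cck, Slc40a1, Fabp6, Hoxb13, the acinar genes, the alpha-defensins as a group, Sox9, Krt19 and the close copies were named after their values were seen. Positions, lengths and coding sequences are from GENCODE vM21, promoters from RefSeq, and no promoter of Defa24 was used. Alternatives were pseudocounts of 0.1 and 5, other filters, quantile and median-of-ratios scaling, a robust fit, a replicate block, all 18 libraries in 1 fit and each library left out. Chosen after seeing the data were scaling to equal summed FPKM, centring by transcript length, and leaving out H2 intestine 2 and 3 together.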

Additional observations from a re-analysis of the deposited data

Results flagged for a closer look

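The H2 change of Reg3g differed between the intestine and the liver in the test of the difference itself. The intestinal change minus the hepatic change was 2.08 ± 0.39 (log2, limma, adjusted p = 0.0387, range of adjusted p over 28 alternatives 0.00056 to 0.135). Levels averaged 64587 ± 11844 FPKM in H2 intestine against 52510 ± 5026 FPKM in control intestine, and 140.0 ± 31.6 FPKM in H2 liver against 512 ± 215 FPKM in control liver (SD, n = 3 each). H2 was below control in the liver for 3 of 3 libraries, and above all controls in the intestine for 2 of 3.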

How the results depend on the processing

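No member was called in the intestine under any of the 18 alternatives, and each kept its direction in all of them except Reg3b and Reg3g under quantile normalization and Reg3g under scaling to equal summed FPKM (-0.019). Quantile normalization gives Reg3b and Reg3g no difference by construction, since they are ranks 1 and 2 in every library. The number of genes called in the intestine, 1 as reported, was 2 with the robust fit, 3 with equal summed FPKM, 225 with all 18 libraries in 1 fit, 15 without H2 intestine 2 and 3, and 2 to 28 with single libraries left out. In the liver, 2 as reported, it was 0 with a pseudocount of 0.1, without a filter and with a mean FPKM of at least 5, 1 with quantile normalization, 279 with all 18 libraries (1 member, Reg3g) and 0 to 2834 with single libraries left out (0 to 1 members). In the lung, 1 as reported, it was 2 without a filter, 535 with all 18 libraries and 1 to 3295 with single libraries left out. The difference between organs, 29 genes as reported, had 15 with a pseudocount of 0.1, 61 with 5 and also 61 without a filter, 7 with a mean FPKM of at least 5, 48 with the robust fit, and 10 to 779 with single libraries left out. The causes were not tested.

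Of the members, liver Lyz1 ran from -0.23 to 0.26 and liver Mmp7 from -0.64 to 0.0037 with single libraries left out, and lung Reg3b from -0.92 to 0.59. Whether replicate numbers pair the samples cannot be decided from so few libraries per group. Same-numbered H2 and control libraries had correlations of deviations of 0.16, -0.11 and -0.03 for the gut. For the liver these were 0.33, -0.08 and 0.03, and differently numbered liver libraries reached 0.25. Lung values were -0.01, 0.12 and 0.01. Library 1 of both liver groups shared traces of Defa24 and Itln1, and library 1 of both lung groups had the most alpha-defensin RNA of its group. With the replicate block, 3 genes were called in the intestine and 0 in the liver, and the Reg3g difference of 2.08 had an adjusted p of 0.0735. Without counts, the depth limits low values such as Reg3a, Reg1 and Defa24 outside the intestine, which were not tested where the mean was under 1 FPKM.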
